A study of Mus musculus with 15 samples.

Results

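The genes described here encode the constant parts of mouse antibodies and the chain that joins antibodies into polymers. They are the heavy-chain constant genes Ighm, Ighd, Ighg1, Ighg2b, Ighg2c, Ighg3 and Igha, the light-chain constant genes Igkc and Iglc2, and Jchain. They were chosen by name, after the Ensembl identifiers of the count tables had been matched to gene symbols of the GENCODE annotation, and make up 10 of the 55416 gene identifiers counted. All 10 were found.

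RNA from whole blood of C57BL/6 mice, drawn by cheek bleed, was sequenced as 15 libraries in groups of 5. Mice of both operated groups received 2 doses of αCTLA-4, an antibody that blocks an inhibitory receptor of T cells, and then either an early or a late neck dissection (ND), the surgical removal of the lymph nodes of the neck. The labels of the untreated mice name neither antibody nor surgery. The labels give all 15 samples, untreated ones included, the same transplant of 4MOSC1 cells, a mouse oral squamous carcinoma line, into the tongue and 10 days of growth, and the methods describe recipients as female and a few weeks old. The sources place blood sampling both before and after the late operation, so "late ND" names the group and not a time after surgery. The antibody and the operation differ together between early ND and untreated mice, and their parts cannot be told apart there. The same holds for late ND mice if blood was drawn after the late operation. If blood was drawn before it, only the antibody differs between late ND and untreated mice. Late against early ND then sets mice not yet operated on against operated mice. If blood was drawn after it, late against early ND sets 2 times of surgery against each other. Per the labels each library came from 1 mouse, and the p-values below measure the spread between these libraries. The labels give no litter or cage.

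A B cell joins a variable segment to the constant gene Ighm and, by alternative splicing of the same long transcript, to Ighd, so that a mature cell which has not met antigen carries IgM and IgD together. Class switching then cuts out the DNA between the variable segment and a constant gene farther downstream, and the cell makes IgG, IgE or IgA with the same specificity. Light chains are kappa (Igkc) or lambda (the Iglc genes), with kappa the more common in mice. Plasma cells secrete the antibody in bulk, IgM and polymeric IgA with the J chain attached, and blood normally holds few of them beside many naive B cells.

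The deposited files hold raw counts. Between 5862888 and 10796099 counts per untreated mouse fell on genes, between 5527108 and 7182346 in the early ND group and between 7849602 and 13924361 in the late ND group. Values below are in CPM, counts scaled to a common library size, after TMM normalization, which scales each library by the bulk of its genes. In 3 libraries, untreated 2, late ND 2 and late ND 3, the 18S ribosomal RNA gene Rn18s-rs5 took 313 to 766 CPM of all gene counts, against 13402 or more in the other 12. The fold changes of members, the correlations and the switched share were also computed without them, which leaves 3 late ND and 4 untreated libraries. The tissue label was checked against blood markers. The 9 erythroid genes measured took from 15.4% to 66.7% of the gene counts of a library, with Hbb-bs, a beta-globin gene, as the most abundant. Of the salivary gland markers, Smr3a and Prol1 had 0 counts in all 15 libraries, and the 8 genes of that list summed to between 1.61 CPM (untreated 1) and 96.9 CPM (untreated 5), mostly from the keratin gene Krt8.

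To set levels of different genes side by side, CPM was divided by exon length, with every annotated exon base of a gene counted once. These lengths depend on the annotation, with 1326 bases for Ighg2c and 2678 for Ighg2b, and the order below rests on them. Per kilobase of exon, Igkc was the most abundant member at 372 ± 92.4 CPM per kb (SD, n = 15). It was followed by Ighm at 260 ± 65.0, Ighd at 149 ± 48.5 and Iglc2 at 40.3 ± 14.4. Igkc lay above Ighm, and Ighm above Ighd, in 15 of 15 libraries. Igha stood far lower at 7.31 ± 4.56 CPM per kb (SD, n = 15), and Jchain at 2.67 ± 1.61 was below it in 15 of 15 libraries. The IgG genes came last, Ighg2b at 1.27 ± 0.60 CPM per kb, Ighg1 at 0.952 ± 0.702, Ighg2c at 0.628 ± 0.638 and Ighg3 at 0.493 ± 0.348 (SD, n = 15). Jchain exceeded Ighg2b in 11 of 15 libraries, Ighg2b exceeded Ighg1 in 11 of 15 and Ighg2c exceeded Ighg3 in 8 of 15, and in each of these pairs the mean difference was smaller than its SD over libraries. The annotated constant gene of IgE, Ighe, summed to 2 counts over the untreated mice, 1 over the early ND group and 0 over the late ND group. The level of IgE transcripts was thus not measured.

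Ighm (ENSMUSG00000076617), the constant gene of IgM, lies on chromosome 12 of GRCm39 from 113382178 to 113386350 on the minus strand. It had 620, 497, 512, 408 and 391 CPM in untreated mice 1 to 5. In the early ND group it had 593, 722, 438, 553 and 431 CPM, and in the late ND group 429, 639, 515, 266 and 333 CPM. Late ND 4 and 5 were the lowest of the 15 libraries, and the 3 groups overlapped. Ighd (ENSMUSG00000104213), the constant gene of IgD, lies next to it from 113370224 to 113379944. Its values were 320, 303, 284, 222 and 200 CPM in untreated mice, 384, 472, 264, 307 and 232 CPM in the early ND group, and 246, 410, 316, 126 and 167 CPM in the late ND group. As for Ighm, early ND 2 was the highest and late ND 4 and 5 the lowest, and the groups overlapped. Ighd took 35.3% ± 1.64 of the Ighm and Ighd counts in untreated mice, 37.4% ± 2.04 in the early and 35.8% ± 2.98 in the late ND group (SD, n = 5 each), with overlap of all groups.

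Over the 15 libraries, log2 CPM of Ighm and Ighd moved together, with Pearson's r = 0.982 and Spearman's rho = 0.986 (permutation tests, each p = 1e-05 and adjusted p = 1e-05 over 5 pairs of members, the smallest that 100000 resamples can give). Without late ND 4 and 5, the 2 libraries farthest from the median of Ighm, r was 0.959, and among the 12 libraries rich in 18S sequence it was 0.982. The libraries share their groups, and for deviations from the group means, an alternative chosen after seeing the data, r was also 0.982. Of the 13308 genes outside the immunoglobulin genes that were compared by r over the 15 libraries, those most like Ighm were Cd79b (0.989), a signaling chain of the B cell receptor, and the MHC class II genes H2-Aa (0.984) and H2-DMb2 (0.974). Among those most like Ighd were Pax5 (0.984), a transcription factor of B cells, and Cd79b (0.977).

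**Figure D1:**
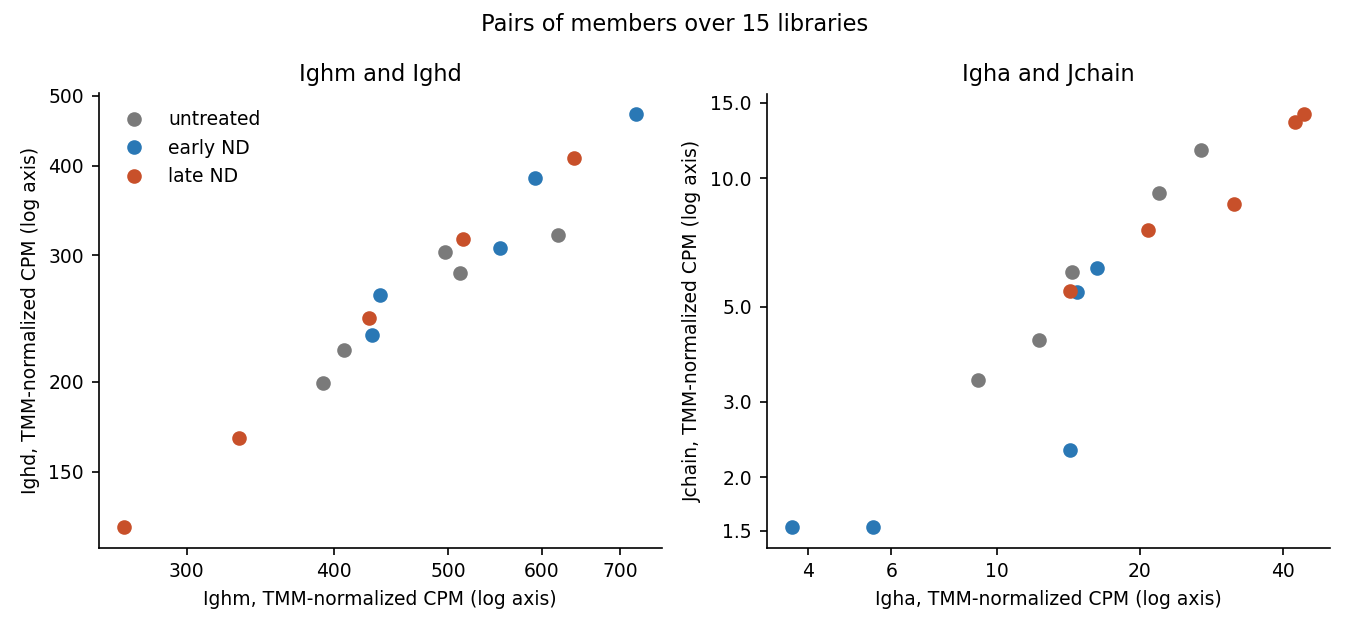
Level of Ighd against Ighm (left) and of Jchain against Igha (right) in TMM-normalized CPM on log axes, 1 point per library, colored by group. Both pairs rise along a line over the 15 libraries, and the highest Igha and Jchain values, 44.4 and 14.1 CPM, are those of late ND 4, which has the lowest Ighm and Ighd values.

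Igkc (ENSMUSG00000076609), the single kappa constant gene, lies on chromosome 6 from 70703419 to 70703950 on the plus strand. It had 279, 215, 214, 163 and 156 CPM in untreated mice, 219, 256, 162, 191 and 201 CPM in the early ND group, and 159, 275, 228, 118 and 136 CPM in the late ND group. Untreated 1 and late ND 2 were the highest and late ND 4 and 5 the lowest, and the groups overlapped. In the annotation used here, 97.9% of its exon bases lie opposite the long noncoding gene Gm68839, which the count tables do not list, and whether counting used strand is not given in the sources used here. Reads of the 2 genes could not be separated here. Igkc followed Ighm over the 15 libraries (r = 0.935, rho = 0.918, permutation tests, each p = 1e-05 and adjusted p = 1e-05). Without late ND 4 and 5 this r was 0.880, and it was 0.938 in the libraries rich in 18S sequence. The genes most like Igkc were Cd79a (r = 0.948), the partner of Cd79b, the proton channel gene Hvcn1 (0.945) and H2-Aa (0.931).

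Iglc2 (ENSMUSG00000076937), a lambda constant gene on chromosome 16 from 19017146 to 19019101, had 37.0, 25.5, 32.2, 14.9 and 17.7 CPM in untreated mice, 32.9, 35.8, 20.5, 19.8 and 24.2 CPM in the early ND group, and 18.6, 39.0, 25.4, 11.8 and 14.7 CPM in the late ND group. Late ND 2 was the highest and late ND 4 and 5 the lowest, and the groups overlapped. It followed Igkc (r = 0.954, rho = 0.943, permutation tests, each p = 1e-05 and adjusted p = 1e-05), with r = 0.925 without late ND 4 and 5 and 0.954 in the libraries rich in 18S sequence. Iglc2 has a near copy, Iglc3, with 94.5% identity over their aligned constant exons, whereas Iglc1 is 67.4% identical to Iglc2. Stretches of 75 bases shared exactly by Iglc2 and Iglc3 made up 0.93% of those in Iglc2, and none of 150 bases were shared. The 60 bases at the start of the constant exon of each show how alike they are, with capitals at the bases that differ from Iglc2 (minus strand of GRCm39, chr16:19017543-19017602, chr16:18884372-18884431 and chr16:18880762-18880821, 4 differences in Iglc3 and 12 in Iglc1).
Iglc2: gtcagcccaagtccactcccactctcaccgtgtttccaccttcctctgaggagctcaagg
Iglc3: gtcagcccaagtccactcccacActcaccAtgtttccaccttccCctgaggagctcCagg
Iglc1: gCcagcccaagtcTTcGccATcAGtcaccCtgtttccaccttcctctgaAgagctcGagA
The lambda genes Iglc1 to Iglc4 were also summed. Lambda took 23.6% ± 1.59 (SD, n = 5) of light-chain constant counts in untreated mice, 24.6% ± 2.08 in the early ND group and 22.8% ± 2.18 in the late ND group (SD, n = 5 each). Single libraries ran from 19.9% (95% Wilson interval 18.2% to 21.7%) in late ND 4 to 27.6% (25.9% to 29.5%) in early ND 1, and the groups overlapped. Intervals of this kind cover counting error only.

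The switched genes lie downstream of Ighd on the same strand. Igha (ENSMUSG00000095079), the constant gene of IgA, is the farthest, from 113218450 to 113223856 of chromosome 12. It had 26.9, 21.9, 14.4, 9.13 and 12.3 CPM in untreated mice 1 to 5. In the early ND group it had 5.48, 14.3, 16.3, 14.8 and 3.71 CPM, and in the late ND group 14.3, 42.4, 20.9, 44.4 and 31.5 CPM. Of the late ND libraries, 4 lay above every early ND library and late ND 1 lay among them. Jchain (ENSMUSG00000067149), on chromosome 5 from 88667668 to 88675750, had 11.7, 9.26, 6.04, 3.38 and 4.19 CPM in untreated mice, 1.53, 2.32, 6.16, 5.41 and 1.53 CPM in the early ND group, and 5.45, 13.5, 7.58, 14.1 and 8.72 CPM in the late ND group. Again 4 late ND libraries lay above every early ND library and late ND 1 did not. In late ND 4, Igha and Jchain were the highest of the 15 libraries while Ighm, Ighd and Igkc were the lowest.

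The J chain joins IgM and IgA through the tailpiece, the last coding bases of the secreted heavy chain, which the membrane form replaces by other exons. This stretch has 62 coding bases with the stop codon in Ighm and in Igha, of which 43 are the same (69.4%, in capitals), and only 8 in each of the 4 IgG genes, whose antibodies carry no J chain (minus strand of GRCm39, chr12:113384487-113384548 and chr12:113222388-113222449).
Ighm tailpiece: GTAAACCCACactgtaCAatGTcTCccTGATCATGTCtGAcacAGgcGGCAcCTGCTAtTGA
Igha tailpiece: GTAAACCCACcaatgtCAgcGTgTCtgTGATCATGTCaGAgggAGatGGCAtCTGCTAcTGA
Jchain followed Igha over the 15 libraries (r = 0.939, rho = 0.968, permutation tests, each p = 1e-05 and adjusted p = 1e-05). Without early ND 5 and late ND 4, the libraries farthest from the median of Igha, r was 0.911. It was 0.928 among the 12 libraries rich in 18S sequence and 0.905 for deviations from the group means. The correlation of Jchain with Ighm was not tested. The genes outside the immunoglobulin genes most like Igha were Ano6 (r = 0.823), Ergic3 (0.798) and Dnajc16 (0.796), and those most like Jchain were Gm13568 (0.797), Entr1 (0.790) and Spef1l (0.777), none of them from the B cell or plasma cell lists.

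The 4 IgG genes rested on few counts. Ighg2b (ENSMUSG00000076613) had 2.41, 3.55, 0.576, 4.73 and 2.74 CPM in untreated mice, 1.66, 4.47, 1.64, 2.17 and 2.40 CPM in the early ND group, and 3.72, 5.05, 4.29, 5.61 and 6.00 CPM in the late ND group, from 2 to 126 counts per library. Apart from early ND 2, each early ND library was below each late ND library. Ighg1 (ENSMUSG00000076614) had 6.83, 3.34, 2.88, 1.35 and 4.35 CPM in untreated mice, 0.127, 1.16, 1.37, 1.44 and 1.09 CPM in the early ND group, and 4.18, 1.64, 1.53, 4.51 and 1.2 CPM in the late ND group, with overlap of all groups. Ighg2c (ENSMUSG00000076612), which C57BL/6 mice carry in place of Ighg2a, had 1 or 2 counts in each early ND library, 1 to 37 in the late ND libraries and 0 to 24 in untreated mice. The 0 of untreated 3 is no measured absence, since 3 counts would have been 0.863 CPM there. Ighg3 (ENSMUSG00000076615) had 0.402, 0.418, 0.576, 1.52 and 0.161 CPM in untreated mice, 1.66, 1.82, 0.821, 3.61 and 2.18 CPM in the early ND group, and 1.27, 1.24, 0.569, 1.26 and 1.07 CPM in the late ND group, also with overlap. Aligned, the sequences of Ighg2b and Ighg2c are 85.6% identical, and no stretch of 150 bases, the length of a read, is shared exactly between any of the constant genes. The correlation of Ighg2b and Ighg2c over the 15 libraries did not pass the test (r = 0.485, p = 0.0644, rho = 0.432, p = 0.109, permutation tests, adjusted p = 0.0644 and 0.109). Without untreated 3 and early ND 3, the libraries farthest from the median of Ighg2b, r was 0.196. In the libraries rich in 18S sequence r was 0.660, which passed the threshold. It also passed with a prior count of 0.5 and under library totals. Library totals shift the genes of a library together, so passing there cannot show a link particular to this pair.

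**Figure D2:**
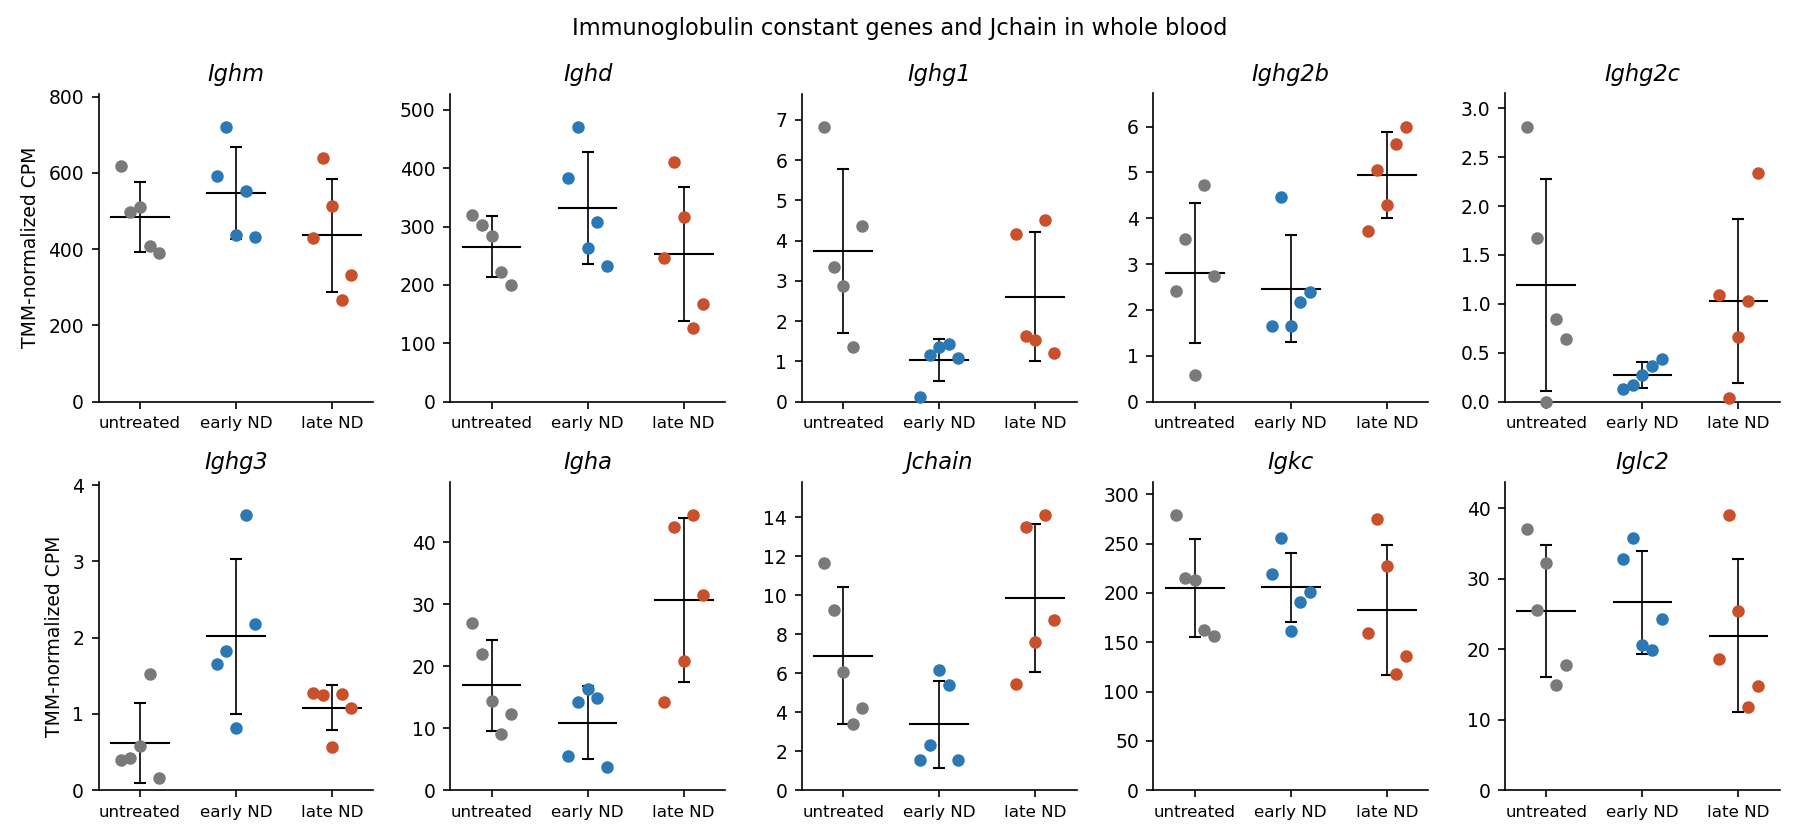
TMM-normalized CPM of the 10 genes in each library (points), with the mean of each group (line) and its SD (bars), on linear axes from 0 that differ between panels. Ighm, Ighd, Igkc and Iglc2 overlap between all groups, while 4 of the 5 late ND libraries lie above all early ND libraries for Igha and for Jchain.

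To set unswitched against switched isotypes within each library, the counts of Ighg1, Ighg2b, Ighg2c, Ighg3, Igha and Ighe were taken as a share of all heavy-chain constant counts. This ratio needs no normalization between libraries. The switched share was 4.03%, 3.74%, 2.26%, 2.72% and 3.30% in untreated mice 1 to 5, 0.917%, 1.81%, 2.82%, 2.53% and 1.46% in the early ND group, and 3.51%, 4.59%, 3.25%, 12.7% and 7.78% in the late ND group. Each late ND library was above each early ND library, whereas untreated mice overlapped both groups. The 95% Wilson intervals of the nearest libraries overlapped, at 2.41% to 3.31% in early ND 3 and 3.01% to 3.51% in late ND 3. The mean share was 6.36% ± 3.97 in the late and 1.91% ± 0.778 in the early ND group, against 3.21% ± 0.723 in untreated mice (SD, n = 5 each). No test was made of a score over chosen genes. The difference between late and early ND was 4.45 percentage points, 6.08 in the libraries rich in 18S sequence and 2.87 without late ND 4. For this pair of groups, the libraries rich in 18S sequence leave out only late ND 2 and late ND 3. Groups that did not overlap before could not come to overlap there. Between late ND and untreated mice the difference was 3.15 points, 4.91 in the libraries rich in 18S sequence and 1.57 without late ND 4.

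IgA made up most of this share in 14 of 15 libraries, early ND 5 being the exception with 17 IgA counts of 45 (37.8%, 95% Wilson interval 25.1% to 52.4%), and in untreated 4 it was 51.9% (42.4% to 61.3%). Igha took 2.12% ± 0.572 of heavy-chain constant counts in untreated mice, 1.24% ± 0.736 in the early and 4.81% ± 3.21 in the late ND group (SD, n = 5 each), with 9.91% (95% Wilson interval 9.18% to 10.7%) in late ND 4. The IgG genes together took 1.09% ± 0.345, 0.665% ± 0.223 and 1.55% ± 0.848 (SD, n = 5 each), and both shares overlapped between late and early ND.

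**Figure D3:**
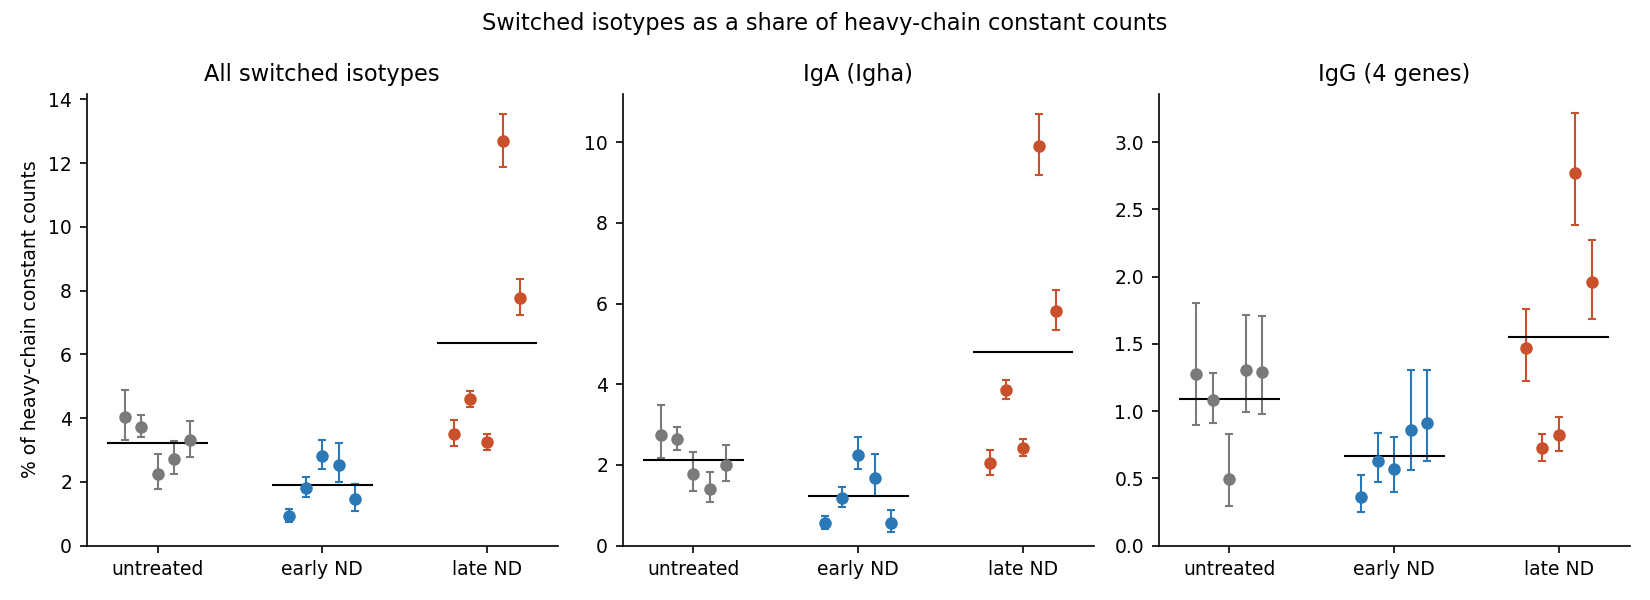
Counts of all switched isotypes, of IgA and of IgG as a percent of heavy-chain constant counts in each library (points with 95% Wilson intervals) and the mean of each group (lines). All late ND libraries lie above all early ND libraries in the left panel, from 3.25% against at most 2.82%, and late ND 4 is highest in all 3 panels.

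Between early and late ND, Igha and Jchain rose. Whether they differed from the unswitched genes in this was not tested. The fit covered all genes, and 9 of the 10 members passed the filter on low counts, Ighg2c being too low. In edgeR's quasi-likelihood test, adjusted by Benjamini-Hochberg over 13315 genes, 2 of the 9 were called, and 4.98% of all genes tested were called in either direction. Jchain was higher by a log2 fold change of 1.61 (SE 0.41, adjusted p = 0.0429) and Igha by 1.54 (SE 0.40, adjusted p = 0.0474). From bulk RNA, more cells of a type and more RNA per cell cannot be told apart. For none of the 9 members did the groups fail to overlap, while 5.91% of all genes tested had no overlap in either direction. Ighg2b differed by 1.03 (SE 0.28) with an adjusted p of 0.0526 in edgeR's test with Benjamini-Hochberg adjustment, Ighg1 by 1.39 (SE 0.54, adjusted p = 0.143) and Ighg3 by -0.77 (SE 0.37, adjusted p = 0.231). The log2 fold changes of Ighm (-0.29, SE 0.24), Ighd (-0.35, SE 0.31), Igkc (-0.13, SE 0.23) and Iglc2 (-0.25, SE 0.30) did not pass the test, and all 4, like Ighg3, were positive under scaling by library totals, which raised the median of all genes to 0.86. Relative to that median these 4 were -0.27, -0.35, -0.11 and -0.24, Ighg3 was -0.74, and those of Igha and Jchain 1.55 and 1.61. In the libraries rich in 18S sequence the same 4 were lower, at -0.68 for Ighm, -0.89 for Ighd, -0.58 for Igkc and -0.84 for Iglc2, and did not pass the same test (adjusted p from 0.0764 for Iglc2 to 0.122 for Ighm, and over their alternatives other than leaving out a library from 0.0336, for Igkc under library totals, to 0.930).

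Both calls were close to the threshold. Among the libraries rich in 18S sequence, 0 members were called, and 4 genes in all, with log2 fold changes of 1.48 for Igha (adjusted p = 0.0915) and 1.51 for Jchain (adjusted p = 0.0928) in edgeR's test with Benjamini-Hochberg adjustment. Igha was called without early ND 3 or without late ND 1 but not without any other single library (early ND 1, 2, 4 or 5, or late ND 2, 3, 4 or 5), with log2 fold changes from 1.33 to 1.78 and adjusted p from 0.0234 to 0.131 in the same test. The same held for Jchain, at 1.39 to 2.08 and adjusted p from 0.0140 to 0.119. With hemoglobin genes and Rn18s-rs5 removed before scaling, the log2 fold change of Igha was 1.51 with an adjusted p of 0.0517 in this test, within a range of 4.84e-05 to 0.0915 over its alternatives other than leaving out a library. Jchain was still called there, at 1.59 (adjusted p = 0.0470, range 6.02e-05 to 0.0928). DESeq2 called 3 members, Igha, Jchain and Ighg2b. Ighg2b passed under 4 of 7 alternatives other than leaving out a library, namely DESeq2, no filter on low counts, the replicate block and library totals, with adjusted p from 0.000289 to 0.107 over the 7. It also passed without early ND 2 (1.38, adjusted p = 0.0251) but not without any other single library, with adjusted p up to 0.144.

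Late ND against untreated mice, which uses the same late ND libraries, gave no call among the members. All 10 were tested, 0 passed edgeR's quasi-likelihood test, adjusted by Benjamini-Hochberg over 13547 genes, 2 had an unadjusted p under 0.05 and DESeq2 called 0, where 3% of all genes were called in edgeR. Igha had a log2 fold change of 0.89 (SE 0.34, adjusted p = 0.201), Ighg2b 0.73 (SE 0.33, adjusted p = 0.285), Ighg3 0.80 (SE 0.49, adjusted p = 0.451) and Jchain 0.56 (SE 0.35, adjusted p = 0.462) in this test. Those of the other 6 ran from -0.49 (Ighg1) to -0.06 (Ighd), and turned positive for all 6 under library totals, with a median of all genes of 0.91. Ighg3 was at 1.5 without untreated 4. In the libraries rich in 18S sequence 0 members were called, Igha was at 0.98 and Jchain at 0.67, and Ighm, Ighd, Igkc and Iglc2 were at -0.51, -0.53, -0.57 and -0.74. No member had groups without overlap, against 5.48% of all genes.

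Early ND against untreated mice, which shares libraries with both other comparisons, gave no call for any gene. Of the 7 members tested, 0 passed edgeR's quasi-likelihood test, adjusted by Benjamini-Hochberg over 12151 genes (0% of all genes), 1 had an unadjusted p under 0.05 and DESeq2 called 0. Over all genes 539 had an unadjusted p under 0.05. Among the 7 members tested, Jchain had the largest difference in size at -1.03 (SE 0.46, adjusted p = 0.938), followed by Igha at -0.63 (SE 0.40, adjusted p = 0.938). Ighm at 0.17, Ighd at 0.32, Igkc at 0.003, Iglc2 at 0.10 and Ighg2b at -0.27 had standard errors from 0.18 to 0.43, and Igkc and Iglc2 changed sign under some alternatives. Ighg1, Ighg2c and Ighg3 were too low to be tested. No member had groups without overlap, against 0.576% of all genes.

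**Figure D4:**
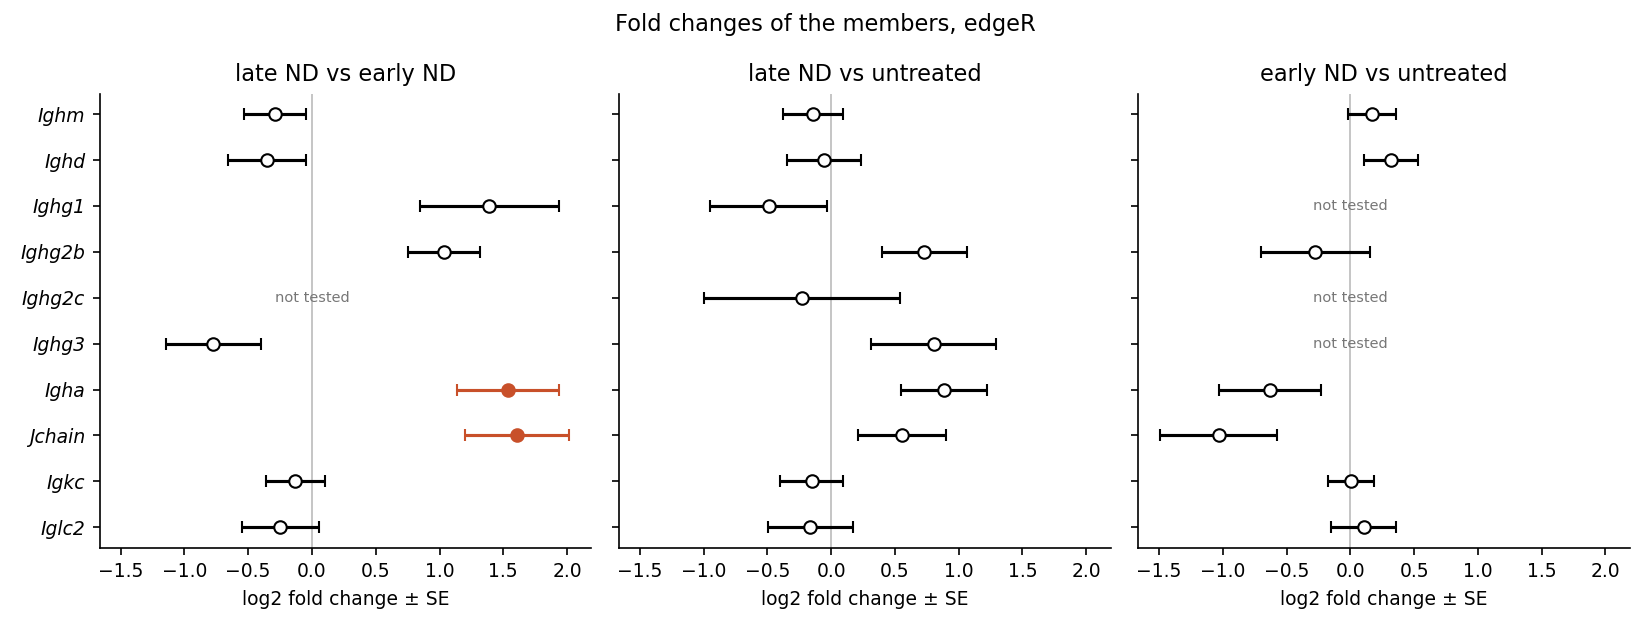
Log2 fold change of each member with its standard error (bars) in the 3 comparisons, from edgeR's fits to all genes, with filled points for an adjusted p under 0.05. Only Igha and Jchain between late and early ND are filled, at 1.54 and 1.61.

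The B cell list holds 22 genes of B cell identity. Of its 22 tested genes 0 were called between late and early ND, and all 22 had negative log2 fold changes with a median of -0.34, against 0.014 over all genes tested. All genes tested of the T cell, NK cell, platelet and erythroid lists were also negative, with medians of -0.264, -0.195, -0.433 and -2.407. The neutrophil and monocyte lists had positive medians, 1.064 and 0.675. Measured against the mean log2 CPM of the B cell list, Ighm stood at 2.78 ± 0.09 in untreated mice, 2.75 ± 0.05 in the early ND group and 2.82 ± 0.05 in the late ND group (SD, n = 5 each). The level of Ighm thus followed that of the B cell genes. Igha stood at -2.13 ± 0.45, -3.07 ± 0.94 and -1.06 ± 0.95 on the same scale, and Jchain at -3.44 ± 0.51, -4.71 ± 1.07 and -2.64 ± 0.83 (SD, n = 5 each). The log2 ratio of Igkc to the summed kappa variable segments was 0.10 ± 0.03, 0.02 ± 0.12 and 0.05 ± 0.03 (SD, n = 5 each).

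Of the 12 plasma cell genes, 7 were tested between late and early ND, and 1 was called, Ell2, an elongation factor that favors the secreted antibody transcript, which fell by 0.80 on the log2 scale (SE 0.19, adjusted p = 0.0318 in edgeR's test with Benjamini-Hochberg adjustment). Xbp1, a transcription factor of secretory cells and the most abundant of the list, had 119 ± 33.8 CPM in the late ND group and 68.6 ± 23.0 CPM in the early ND group (SD, n = 5 each), a log2 fold change of 0.81 (SE 0.25) that did not pass the same test (adjusted p = 0.0775). The median of the list was 0.055, against 0.014 over all genes. The 5 genes too low to be tested averaged from 0.0913 (Tnfrsf17) to 0.765 CPM (Mzb1) over the 15 libraries. Of 12 genes of the class switch machinery, 11 were tested and 0 called, with a median of -0.22. Of the genes of antibody transport and binding, 5 of 6 were tested and 0 called between late and early ND, and 1 of 5 rose between untreated mice and late ND, the inhibitory Fc receptor gene Fcgr2b (0.75, SE 0.17, adjusted p = 0.0403 in edgeR's test with Benjamini-Hochberg adjustment). Its log2 fold change between late and early ND was 0.66 (SE 0.18, adjusted p = 0.0547 in the same test), and the difference between the 2 comparisons was not tested. Between untreated mice and late ND, 4 of 8 monocyte genes also rose, with a list median of 0.713. The B cell list had 0 of 22 genes called there and a median of -0.172. The part of these shifts in the Fcgr2b value was not tested. Of the B cell precursor genes, Rag2 had 0 counts in all libraries and Vpreb3 alone was tested, with no call, and the other lambda genes Iglc1 and Iglc3 were tested with 0 called.

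Other cell types differed between the same libraries. Of 9 erythroid genes 6 fell between late and early ND, and the list took 39.6%, 52.7%, 41.6%, 66.7% and 52.9% of gene counts in early ND 1 to 5 and 30.1%, 18.6%, 20.1%, 30.1% and 15.4% in late ND 1 to 5. Of 8 monocyte genes 3 rose (Cd68, Csf1r and Fn1), and the list, led by F13a1, summed to 703, 617, 662, 834 and 1319 CPM in early ND 1 to 5 and to 1606, 1202, 1108, 1673 and 1489 CPM in late ND 1 to 5. Every late ND library was lower than every early ND library for the erythroid share, and the monocyte sums overlapped at early ND 5. The late ND libraries also held more gene counts than any early ND library. The part of these differences in the Igha and Jchain values was not tested, apart from the scaling without hemoglobin genes given above. In the neutrophil list 0 of 10 genes were called, at a median of 1.06 (log2 fold change), and 0 of 10 T cell, 0 of 6 NK cell and 0 of 6 platelet genes were called between late and early ND. Of the skin and salivary gland lists, 2 genes each were tested and 0 called. The skin list, led by Scd3, summed to 935 CPM in untreated 5, 507 in early ND 3 and 651 in late ND 5. The other libraries ran from 29.3 CPM (early ND 5) to 200 CPM (late ND 4). Early ND 3 was the highest of its group for Igha, Jchain and the switched share. Late ND 5 was below only late ND 4 in switched share. Untreated 5 was not the highest of its group for any of them. The part of skin RNA in these values was not tested.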

How the data were processed

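Paired reads came from 15 blood samples, 1 library per mouse. Per the labels and methods, the authors aligned the reads with STAR 2.7.9 to GRCm39, sorted them with SAMtools 1.7 and deposited raw counts per gene from HTSeq 0.13.5 (the labels also list mm10). The annotation release and the strand setting are not given in the sources used here. Of 55416 identifiers, 54749 matched GENCODE M39, from which symbols, exon lengths and sequences were taken. Rows that name no gene were left out. Groups came from the labels. The members and gene lists were chosen with earlier results of these data known.

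Each pair of groups was fitted in edgeR 4.0.16 (R 4.3.3) with filterByExpr, TMM and the quasi-likelihood F test, with Benjamini-Hochberg adjustment over all genes tested and a threshold of 0.05. The fit was tested on simulated data, and the outcome is not reported here. CPM used TMM factors over 15 libraries, and log2 CPM a prior count of 2. Correlations used two-sided permutation tests with 100000 resamples (numpy 2.4.6, Python 3.11.15), adjusted over 5 pairs (SciPy 1.17.1). Shares have 95% Wilson intervals. Alternatives were library totals, DESeq2 1.42.0, no filter, a replicate block, 1 fit over 3 groups, libraries with at least 5000 CPM of Rn18s-rs5, removal of hemoglobin and 18S genes, and each library left out. All members are named. From each list at most 4 genes are named, by abundance or by passing the threshold, and for likeness up to 3 genes of highest r. Tnfrsf17 and Mzb1 were named after their values were seen. Some single-gene results are not reported here. No library was a copy of another in its group.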

Additional observations from a re-analysis of the deposited data

Results flagged for a closer look

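Among 36 groups of 5 libraries checked, 3 held 1 library far from the other 4, where chance flags about 1 in 20 groups. Ighg1 was at 0.1274 CPM in early ND 1, from 1 count, with the nearest early ND library at 1.091 CPM. Ighg2b was at 4.472 CPM in early ND 2, with the nearest at 2.401 CPM. Ighg3 was at 0.5694 CPM in late ND 3, a library poor in 18S sequence, with the nearest at 1.074 CPM. The cause was not tested for any of them.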

How the results depend on the processing

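Scaling by library totals shifted all genes, with medians of 0.862 (log2, late against early ND) and 0.910 (late ND against untreated). Under it, 5 members and 9060 genes passed the threshold for late against early ND, 8 and 7574 for late ND against untreated, and 3 genes for early ND against untreated. The log2 fold changes that turned positive under library totals were, for late against early ND, Ighm 0.589, Ighd 0.517, Ighg3 0.126, Igkc 0.755 and Iglc2 0.619, and for late ND against untreated Ighm 0.869, Ighd 0.941, Ighg1 0.388, Ighg2c 0.623, Igkc 0.872 and Iglc2 0.889. DESeq2 called 1439 genes for late against early ND and 808 for late ND against untreated, and fits with no filter on low counts called 1282 for late against early ND. In the libraries rich in 18S sequence, which are fewer, 0 members and 4 genes passed for late against early ND and 0 genes for late ND against untreated. With hemoglobin and 18S genes removed, 1 member passed for late against early ND. The cause of these changes was not tested.

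Near 0, signs also turned for Ighd with no filter (late ND against untreated, 0.00533) and for Igkc (early ND against untreated, -0.000126 with no filter and -0.00164 without hemoglobin and 18S genes). Leaving out 1 library at a time, late against early ND gave 0 to 2 members and 145 (without late ND 3) to 1610 (without early ND 3) genes past the threshold, and late ND against untreated 0 to 593 genes. Log2 fold changes that changed sign ran from -0.334 to 0.09 for Ighd and from -0.471 to 0.131 for Ighg2c (late ND against untreated), and from -0.0945 to 0.132 for Igkc and -0.0447 to 0.254 for Iglc2 (early ND against untreated). Ighg3 ran from 0.542 (without untreated 5) to 1.5 (without untreated 4) for late ND against untreated. For late against early ND, Ighm ran from -0.507 to -0.175, Ighd from -0.636 to -0.196, Igkc from -0.361 to -0.0437 and Iglc2 from -0.604 to -0.125. Ighg2c was too low to test in some of these fits, which gave no value.

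With IgG alone counted as switched, which leaves out Igha, the switched share differed by 0.976 points between late and early ND (0.62 without late ND 4), by 0.536 between late ND and untreated mice (0.18 without late ND 4), and by -0.44 between early ND and untreated mice. Leaving out libraries here was chosen after seeing the data. The correlation of Ighg2b and Ighg2c passed the threshold at r = 0.66 in the libraries rich in 18S sequence, 0.547 under library totals and 0.537 with a prior count of 0.5. The value under library totals cannot show a link particular to this pair, since that scaling shifts the genes of a library together.

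With the replicate number of the labels as a block, 3 members and 673 genes passed for late against early ND, 0 and 607 for late ND against untreated, and 0 and 0 for early ND against untreated. Samples of the same number correlated at -0.181 to 0.459, 0.029 to 0.579 and -0.241 to 0.08 in the 3 comparisons, and not every sample correlated best with its own number, so the numbers were not taken to pair samples.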
